A study of Homo sapiens with 16 samples.

Results

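Genes that couple extra centrosomes, long mitoses or tetraploidy to p53 were followed through a knockdown of the spindle assembly factor TPX2 in IMR32 cells, an established neuroblastoma line with MYCN amplification. The genes were PIDD1, CASP2, CRADD, ANKRD26, USP28, TP53BP1, LATS1 and LATS2. They were picked by symbol, and all 8 have a row among the 58787 genes of the deposited count table and were among the 14193 genes with enough reads to test. The study holds 16 libraries of total RNA in 4 groups of 4, per the titles 3 groups with a different siRNA against TPX2 (si45, si46, si47) and 1 group with a non-targeting siRNA (siNTC). All groups were IMR32 cells, and the table's column names give 48 h for each library. Each knockdown is by siRNA in 1 cell line. The design text calls the 4 libraries of a group biological replicates without saying whether cultures were separate, so a p-value measures the spread between these libraries.

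The PIDDosome is a protein complex in which the scaffold PIDD1 and the adaptor CRADD (also called RAIDD) bring caspase-2 molecules together so that the protease activates itself. ANKRD26, a protein of the distal appendages of the mother centriole, recruits PIDD1 to centrosomes. Extra mother centrioles, as they arise when cytokinesis fails, activate the complex, and caspase-2 then cleaves MDM2 and so stabilises p53. A separate route, the mitotic surveillance pathway or stopwatch, joins 53BP1 (the product of TP53BP1) and the deubiquitinase USP28 to p53 after a long mitosis. The Hippo kinases LATS1 and LATS2 restrain YAP, and LATS2 can also bind MDM2 in tetraploid cells. These routes act largely through proteins, and what follows is about messenger RNA alone.

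Reads came from the 3' ends of transcripts, and totals ran from 5318159 to 7864343 counts per library. Levels are CPM (counts scaled to a common library size) and no level is compared between genes, since capture of the 3' end can differ between them. In bulk RNA, fewer cells with a transcript and less of it per cell cannot be told apart. TPX2 itself was at 327 ± 27.1 CPM (SD, n = 4) with siNTC, 91.6 ± 19.8 with si45, 81.7 ± 14.3 with si46 and 71.5 ± 3.37 with si47, with all 12 knockdown libraries below all 4 controls. The labelled neuroblast identity was checked on 8 adrenergic markers, whose summed level was 5100 to 5517 CPM in the controls and 5229 to 6436 CPM in the knockdown libraries. Markers of other cells were low: the summed mesenchymal markers reached 65.0 CPM, with COL1A1 the one of them over 10 counts in any library, Schwann cell markers 11.3 CPM with SOX10 at 0 counts, epithelial markers 9.65 CPM, immune markers 3.53 CPM and endothelial markers 1.51 CPM.

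PIDD1 was the member that rose with the knockdown. With siNTC it was at 6.89, 6.41, 8.32 and 5.20 CPM in replicates 1 to 4, from 30 to 44 counts per library. With si45 it was at 11.5, 14.1, 8.32 and 9.84 CPM, with si46 at 13.5, 11.6, 9.60 and 9.87 CPM, and with si47 at 14.5, 15.4, 9.58 and 9.65 CPM. All 12 knockdown libraries lay above all 4 controls, but the margin was nil in 1 place: si45 replicate 3 and siNTC replicate 3 both round to 8.32 CPM. Such a separation upwards was found for 1.49% of all tested genes. Over the 3 siRNAs PIDD1 was 1.71-fold higher (95% interval 1.29 to 2.27), a log2 fold change of 0.77 (SE 0.200, edgeR adjusted p = 0.0129).

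Taken by siRNA, the order of PIDD1 means was siNTC (6.71 ± 1.29 CPM, SD, n = 4), si45 (10.9 ± 2.46), si46 (11.2 ± 1.83) and si47 (12.3 ± 3.10). PIDD1 passed the edgeR threshold of 0.05 under si47, with a log2 fold change of 0.87 (SE 0.236, adjusted p = 0.0136). It did not pass under si45, where the log2 fold change was 0.71 (SE 0.237, adjusted p = 0.165), or under si46, where it was 0.74 (SE 0.236, adjusted p = 0.0776). Of 25 alternative fits, 1 passed under si46, that with the replicate number as a block (edgeR adjusted p = 0.0294), and 0 under si45. The siRNAs were not shown to differ from each other in PIDD1: the log2 difference was 0.03 for si46 against si45 (95% interval -0.43 to 0.49), 0.16 for si47 against si45 (-0.30 to 0.62) and 0.13 for si47 against si46 (-0.33 to 0.59). The 3 comparisons with siNTC share the same 4 control libraries.

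The call for PIDD1 rests on the low control library as well as on the knockdown libraries. Without siNTC replicate 4, at 5.20 CPM the lowest of all libraries, the log2 fold change over the 3 siRNAs was 0.67 and the edgeR adjusted p 0.0753. Without any other single library the adjusted p stayed between 0.00644 and 0.0461. It was 0.00644 without si45 replicate 3, the knockdown library with the most residual TPX2 (121 CPM, against 79.4 to 85.1 CPM in the other si45 libraries). The si47 call was lost without siNTC replicate 4 (adjusted p = 0.0588), si47 replicate 1 (0.0589) or si47 replicate 2 (0.0665).

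**Figure D1:**
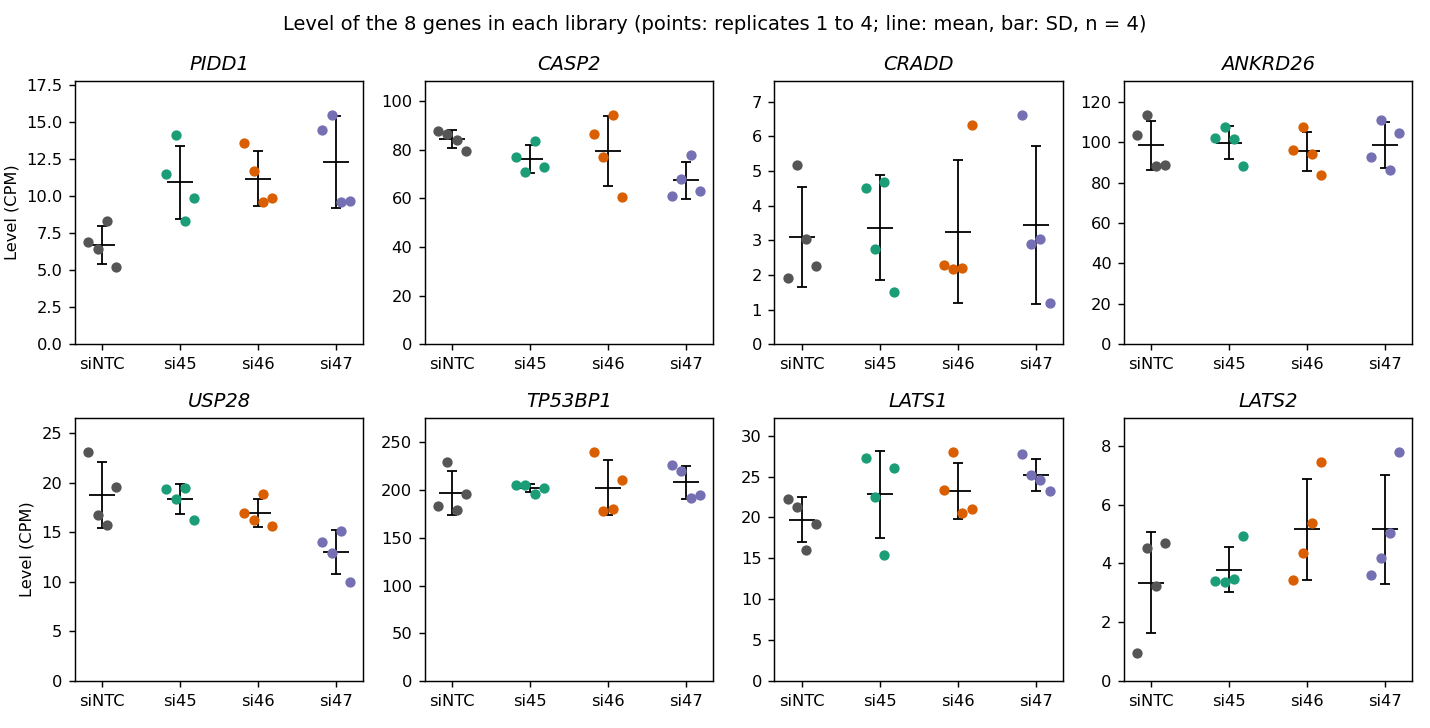
Level in CPM (y axis, from 0) of each of the 8 genes in the 16 libraries, by group (x axis); points are libraries, the horizontal line is the group mean and the bar the SD (n = 4). PIDD1 lies above the 4 controls in the 12 knockdown libraries, with si45 replicate 3 level with the highest control; USP28 is lowest with si47 (9.99 to 15.1 CPM).

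The p53 target MDM2, which encodes the ligase that caspase-2 cleaves, rose in the same libraries with a larger log2 fold change than PIDD1. MDM2 was at 98.4 ± 6.64 CPM with siNTC, 200 ± 34.9 with si45, 227 ± 31.0 with si46 and 285 ± 58.8 with si47 (SD, n = 4 each). The log2 fold change over the 3 siRNAs was 1.25 (SE 0.122, edgeR adjusted p = 9.5e-07), with 12 of 12 libraries above the controls, as for 1.49% of tested genes. PIDD1 minus MDM2, as the difference of log2(CPM + 1) inside each library, was -3.70 ± 0.313 in the controls and -4.08 ± 0.108, -4.23 ± 0.216 and -4.44 ± 0.176 with si45, si46 and si47. The si47 libraries (-4.68 to -4.27) lay below the controls (-4.09 to -3.32), and the other groups overlapped them. This difference was added after the values had been seen.

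PIDD1 has itself been described as a p53 target, so the RefSeq promoter windows (GRCh38.p14, 250 bases before to 50 after each annotated start) of the 8 genes were searched for a p53 response element. The search asked for a pair of half-sites of 10 bases, with the fixed C and G of each kept, at most 1 mismatch in each, and a gap of 0 to 10 bases. The element is its own reverse complement, so 1 pass reads both strands. Of 35116 windows of 300 bases, 503 (1.43%) held a match, as did 2 of the 4 MDM2 windows and none of the 12 windows of the 8 genes. The 2 MDM2 windows with a match overlap and hold the same site. The MDM2 match, 101 to 82 bases before the start, and the nearest pair in the PIDD1 window, 79 to 55 bases before the start, are shown to make that contrast visible, with the fixed C and G of each half-site in capitals.
MDM2, chr12:68808923-68808942, plus strand: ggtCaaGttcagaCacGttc
PIDD1, chr11:805286-805310, minus strand: gggCgcGtcccgagggggCggGgcc
The MDM2 pair has 2 mismatches and no gap, the PIDD1 pair 5 mismatches and a gap of 5 bases. The absence of a match says only that these letters are not in this window. In GENCODE v29 the PIDD1 gene (chromosome 11, 799179 to 809753, minus strand, GRCh38) reaches beyond the searched window, and its upstream end overlaps RPLP2 on the opposite strand by 107 bases. Its downstream end, where 3' reads fall, overlaps PANO1 on the opposite strand by 12 bases, and PANO1 was not analysed here. RPLP2, which encodes a ribosomal stalk protein, had a log2 fold change of 0.09 (edgeR adjusted p = 0.475), and SLC25A22, a gene near the downstream end, 0.26 (adjusted p = 0.639).

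The 3 genes whose levels across the 16 libraries were most like that of PIDD1 were the histone pseudogene H2BC20P (Pearson r of log2 CPM 0.944), the U6 small nuclear RNA pseudogene RNU6-11P (0.939) and a gene listed as U2 (ENSG00000278774, 0.925), out of 11806 genes compared. These are descriptions over libraries that share 4 groups. The correlations were 0.866, 0.841 and 0.825 once each group's mean had been removed. H2BC20P was at 11.6, 14.8, 7.11 and 10.97 CPM in si45 replicates 1 to 4, where PIDD1 was at 11.5, 14.1, 8.32 and 9.84 CPM. RNU6-11P was at 46.7, 21.4, 16.5 and 13.04 CPM in si47 replicates 1 to 4, where PIDD1 was at 14.5, 15.4, 9.58 and 9.65 CPM. Replicates 1 and 2 of each of si45, si46 and si47 were the high ones for PIDD1, RNU6-11P and U2 alike.

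All 3 of these genes passed the edgeR threshold over the 3 siRNAs, H2BC20P with a log2 fold change of 1.11 (adjusted p = 4.8e-04), RNU6-11P with 2.08 (adjusted p = 0.0132) and U2 with 2.78 (adjusted p = 0.0276). RNU6-11P lost its call without siNTC replicate 2 or 4 (adjusted p = 0.0513 and 0.0514), and U2 without any 1 of the 4 controls (0.0722 to 0.0874). They have near-identical copies in the genome, and how the authors counted reads that match several copies is not given in the sources used here, so their values are uncertain. The summed level of the 69 tested small nuclear RNA genes did not follow PIDD1: its correlation with PIDD1 over the 16 libraries was -0.11, and -0.30 within groups. Of those 69 genes, 20 were called higher and none lower over the 3 siRNAs in edgeR, beside 3.61% of all genes called higher and 3.53% lower. With that summed level as a covariate, added after the data had been seen, the PIDD1 log2 fold change over the 3 siRNAs was 0.78 (adjusted p = 0.0109). The sum was 2237 to 4231 CPM per library, far above RNU6-11P (at most 46.7 CPM) and U2 (at most 58.5 CPM). This fit therefore cannot tell whether PIDD1 moves apart from RNU6-11P and U2.

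CASP2, which encodes the protease of the PIDDosome, had its lowest levels with si47. It was at 87.5, 86.3, 84.0 and 79.5 CPM in siNTC replicates 1 to 4, and at 61.0, 67.9, 77.6 and 62.8 CPM with si47. With si45 it was at 77.2, 70.9, 83.7 and 72.8 CPM, and with si46 it spread from 60.7 to 94.1 CPM. All 4 si47 libraries lay below all 4 controls, as they did for 6.98% of tested genes, while the si45 and si46 libraries overlapped the controls. The log2 fold change under si47 was -0.33 (SE 0.112, 95% interval -0.55 to -0.10) and did not pass (edgeR adjusted p = 0.0606). It passed in 4 of the 25 alternative fits. Among these were the fits with the replicate number as a block (edgeR adjusted p = 0.0113) and without si47 replicate 3 (0.0222). The adjusted p ranged from 0.0113 to 0.191 over the alternatives. Over the 3 siRNAs CASP2 had a log2 fold change of -0.18 (95% interval -0.37 to -0.00108, adjusted p = 0.241).

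CRADD, the adaptor between PIDD1 and caspase-2, had few reads in these libraries. Its counts were 12, 33, 16 and 13 with siNTC, 29, 18, 27 and 8 with si45, 18, 12, 13 and 34 with si46, and 42, 16, 18 and 7 with si47. The 4 groups overlap throughout, with means from 3.09 to 3.43 CPM. The log2 fold change over the 3 siRNAs was 0.11 (95% interval -0.68 to 0.90, edgeR adjusted p = 0.917). The spread between libraries of a group, a CV of 44.9% to 66.4%, was wider than the 21.95% to 23.2% that counting alone gives.

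ANKRD26, which brings PIDD1 to the distal appendages, varied little between groups. Its group means were 98.5 ± 12.1 CPM with siNTC, 99.8 ± 8.33 with si45, 95.4 ± 9.86 with si46 and 98.5 ± 11.2 with si47 (SD, n = 4). The lowest library of all was si46 replicate 4 at 83.6 CPM and the highest siNTC replicate 2 at 113 CPM. Over the 3 siRNAs its log2 fold change was -0.01 with an interval of -0.18 to 0.16 (edgeR adjusted p = 0.969), the narrowest interval among the 4 genes of this route. Inside each library PIDD1 minus CASP2 on the log2(CPM + 1) scale went from -3.48 ± 0.215 with siNTC to -2.71 ± 0.383, -2.72 ± 0.301 and -2.39 ± 0.426 with si45, si46 and si47, with si45 replicate 3 (-3.18) level with the highest control (-3.19). PIDD1 minus ANKRD26 went from -3.70 ± 0.305 to -3.10 ± 0.258, -2.99 ± 0.187 and -2.93 ± 0.311, with si45 replicate 3 (-3.46) and si47 replicate 4 (-3.31) below the highest control (-3.26). PIDD1 minus CRADD also overlapped between groups, with 0.27 to 1.43 in the controls and 0.57 to 2.29 in the knockdown libraries.

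USP28, the deubiquitinase of the stopwatch, passed the test as lower under si47. It was at 23.1, 16.7, 15.7 and 19.6 CPM in siNTC replicates 1 to 4, and at 13.99, 12.9, 15.1 and 9.99 CPM with si47. With si45 it ran from 16.3 to 19.4 CPM and with si46 from 15.6 to 18.9 CPM, inside or at the edge of the control range. All 4 si47 libraries were below the controls, and also below every si45 and every si46 library, separations that 6.98%, 2.61% and 1.97% of tested genes show downwards. The log2 fold change under si47 was -0.53 (SE 0.176, 95% interval -0.89 to -0.17, edgeR adjusted p = 0.0493), against -0.03 under si45 (adjusted p = 0.968) and -0.15 under si46 (adjusted p = 0.761). The difference between siRNAs did not pass: it was -0.50 for si47 against si45 (95% interval -0.86 to -0.14, adjusted p = 0.251) and -0.38 for si47 against si46 (-0.74 to -0.02, adjusted p = 0.649).

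The USP28 call sat at the threshold and was lost in 19 of 25 alternative fits. Leaving out 1 library at a time kept it in 3 of 16 fits, those without siNTC replicate 3, si45 replicate 3 or si47 replicate 3. The adjusted p was highest without siNTC replicate 1 (0.192, log2 fold change -0.42), the control with the most USP28, and without si47 replicate 4 (0.175, log2 fold change -0.42), the library with the least. The direction held in all 25. Over the 3 siRNAs USP28 had a log2 fold change of -0.24 (95% interval -0.52 to 0.05, edgeR adjusted p = 0.346).

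**Figure D2:**
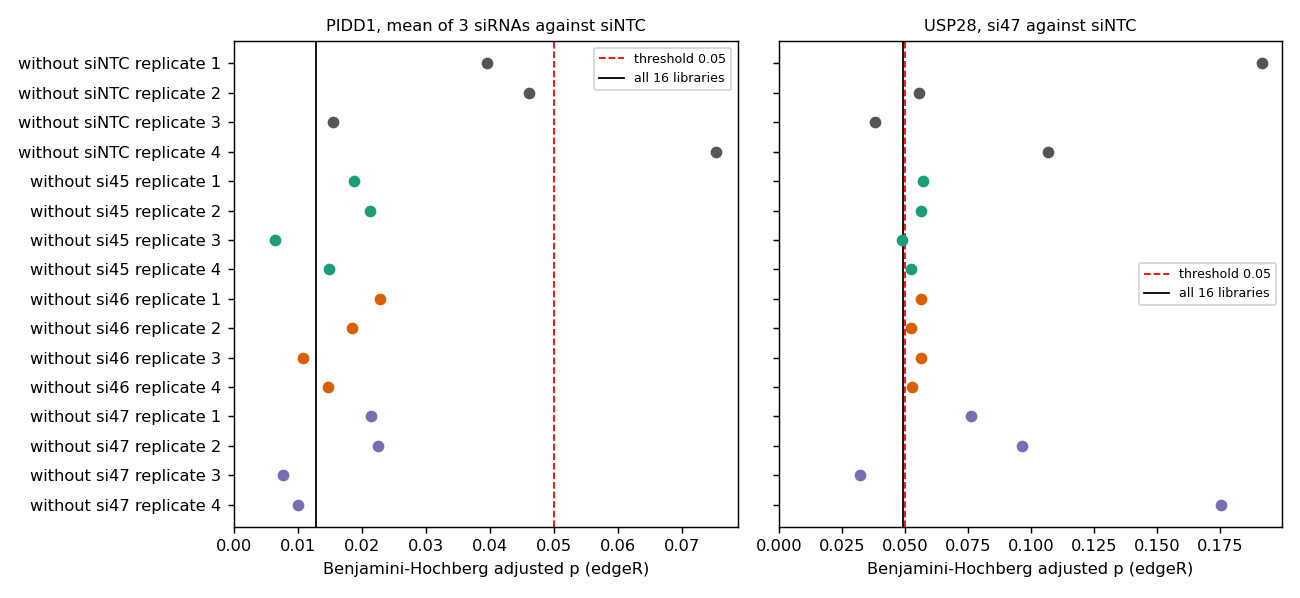
Benjamini-Hochberg adjusted p from edgeR (x axis, from 0) with each library left out in turn (y axis), for PIDD1 over the 3 siRNAs (left) and USP28 under si47 (right); the dashed line is the threshold of 0.05 and the solid line the value with all 16 libraries. PIDD1 crosses the threshold only without siNTC replicate 4 (0.0753), while USP28 crosses it in 13 of the 16 fits.

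TP53BP1, whose product 53BP1 holds USP28 and p53 in the stopwatch complex, also varied little between groups. Its means were 197 ± 22.7 CPM with siNTC, 202 ± 4.50 with si45, 202 ± 29.01 with si46 and 208 ± 17.5 with si47 (SD, n = 4), with single libraries from 178 to 240 CPM. Over the 3 siRNAs the log2 fold change was 0.05 with an interval of -0.11 to 0.21 (edgeR adjusted p = 0.764). Its 3' end overlaps TUBGCP4 on the opposite strand by 6711 bases, and whether the counting used strand is not given in the sources used here. TUBGCP4, a gamma-tubulin complex gene, had a log2 fold change of -0.10 (adjusted p = 0.449). USP28 minus TP53BP1 inside a library was -3.33 ± 0.319 with siNTC, -3.39 ± 0.122 with si45, -3.50 ± 0.256 with si46 and -3.91 ± 0.244 with si47, so the si47 mean lay more than 1 control SD below the control mean, with overlapping ranges (-4.16 to -3.58 against -3.70 to -2.93). This difference too was added after the values had been seen.

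LATS1 was at 22.3, 21.3, 16.1 and 19.3 CPM in siNTC replicates 1 to 4 and at 27.8, 25.2, 24.5 and 23.2 CPM with si47. With si45 it was at 27.3, 22.5, 15.4 and 26.1 CPM, and with si46 at 23.4, 28.0, 20.5 and 21.0 CPM. The si47 libraries all lay above the controls, as they did for 7.41% of tested genes, while si45 replicate 3 was below every control. The log2 fold changes of this Hippo kinase were 0.21, 0.23 and 0.35 under si45, si46 and si47, and 0.26 (95% interval -0.02 to 0.55) over the 3, and none passed (edgeR adjusted p 0.709, 0.571, 0.199 and 0.279).

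LATS2, the kinase that can bind MDM2, had 6, 29, 17 and 27 counts with siNTC, 22, 22, 20 and 26 with si45, 27, 24, 32 and 40 with si46, and 23, 23, 30 and 46 with si47. The lowest library by far was siNTC replicate 1 at 0.962 CPM, and the other 3 controls, at 3.22 to 4.68 CPM, overlapped every knockdown group. The log2 fold change over the 3 siRNAs was 0.47 (95% interval -0.18 to 1.12, edgeR adjusted p = 0.439). Without siNTC replicate 1 it was 0.15. LATS2 minus LATS1 inside a library was -2.36 ± 0.812 with siNTC. It was -2.30 ± 0.342, -2.01 ± 0.531 and -2.13 ± 0.503 with si45, si46 and si47. The control mean and SD rest on siNTC replicate 1 (-3.57), with the other controls at -2.02 to -1.83. Single knockdown libraries ran from -2.68 to -1.38, on both sides of those other controls. With 6 to 46 LATS2 counts per library, a shift in the balance of the 2 kinases was not resolved.

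Counted together, edgeR called 0 of the 8 genes under si45, 0 under si46, 2 under si47 (PIDD1 higher, USP28 lower, where 4.91% of all genes were called higher and 4.83% lower) and 1 over the 3 siRNAs (PIDD1 higher). The share of all tested genes called was 1.34%, 3.40%, 9.74% and 7.14% in these 4 comparisons, so with 8 genes the counts are not far from what the background gives. At an unadjusted p under 0.05 there were 1, 1, 4 and 2 of the 8, and DESeq2 and limma-voom also called none under si45 or si46. The median log2 fold change of the 8 was 0.08, 0.04, 0.12 and 0.08, beside 0.00 for all tested genes in each. Between siRNAs none was called by edgeR, DESeq2 or limma-voom (background 0.0282% for si46 against si45, 0.169% for si47 against si45 and 0.0493% for si47 against si46), with 0, 1 and 2 at an unadjusted p under 0.05.

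**Figure D3:**
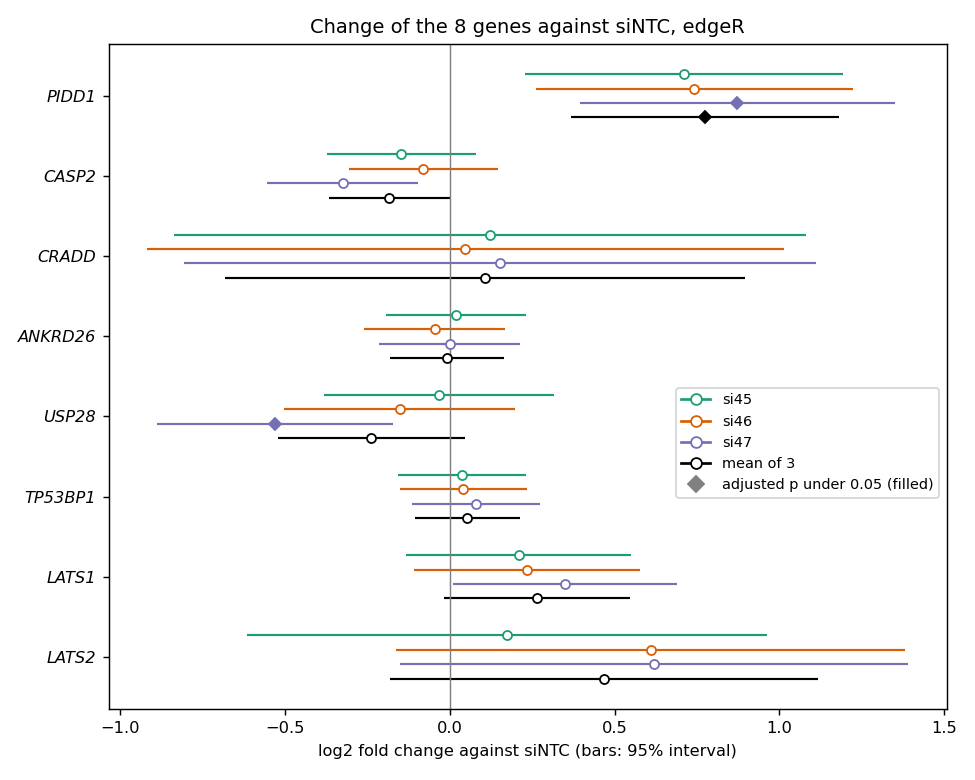
Log2 fold change against siNTC (x axis) of the 8 genes (y axis) under si45, si46 and si47 and over the 3 siRNAs; bars are 95% intervals and filled diamonds mark an edgeR adjusted p under 0.05. PIDD1 sits between 0.71 and 0.87 under each siRNA, USP28 at -0.53 under si47, and the intervals of CRADD and LATS2 are the widest.

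Of the 28 pairs of members, the highest Pearson correlation of log2 CPM was that of CASP2 with USP28 (r = 0.665, and 0.453 once group means were removed), followed by PIDD1 with LATS1 (0.563 and 0.329). The lowest was that of USP28 with LATS2 (-0.629, and -0.646 once group means were removed), the strongest value within groups. LATS2 had only 6 to 46 counts per library. In siNTC replicate 1 USP28 was highest and LATS2 lowest of all libraries (23.1 and 0.962 CPM). In si47 replicate 4 USP28 was lowest and LATS2 highest (9.99 and 7.79 CPM). PIDD1 with LATS2 gave 0.099 over all libraries and -0.491 within groups. CASP2 and USP28 both had their lowest group mean with si47. These values describe 16 libraries that share 4 groups and carry no test.

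Centriole duplication genes build the structures that the PIDDosome senses. All 11 centriole duplication genes had a negative log2 fold change over the 3 siRNAs (median -0.28, beside 0.00 for all genes), and edgeR called 6 of them lower and none higher, where 3.53% of all genes were called lower. SASS6, which builds the cartwheel of a new centriole, fell from 121 ± 4.19 CPM to 98.6 ± 9.62, 84.1 ± 5.19 and 83.5 ± 5.92 with si45, si46 and si47 (log2 fold change -0.45, SE 0.0740, adjusted p = 9.3e-05), with 12 of 12 libraries below the controls. The share of all tested genes separated downwards in this way is not reported here. CEP152, a platform for PLK4, fell from 302 ± 44.9 CPM to 248 ± 28.3, 229 ± 27.2 and 185 ± 22.2 (log2 fold change -0.47, SE 0.0854, edgeR adjusted p = 5.3e-04). PCNT, which encodes pericentrin, had a log2 fold change of -0.31 (SE 0.0736, adjusted p = 0.00698), lost without siNTC replicate 2 (adjusted p = 0.0714). TRIM37, a ligase that limits centrosome assembly, had -0.20 and did not pass (adjusted p = 0.125).

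The count of 6 was 2 without siNTC replicate 2 and 3 without siNTC replicate 1 or 4. The distal appendage genes, where ANKRD26 and PIDD1 dock, gave no call over the 3 siRNAs in edgeR, DESeq2 or limma-voom among 7 tested (2 at an unadjusted p under 0.05, median -0.18), and with 7.14% of all genes called a list of this size may hold none. TTBK2, a kinase of this structure named after its value was seen, was called lower under si47 (log2 fold change -0.32, edgeR adjusted p = 0.0478). It was the 1 call among the 7 under si47, where 4.83% of all genes were called lower and 4.91% higher. The call is at the threshold, and its value in the alternative fits is not reported here.

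Of the PIDD1 and caspase-2 partners and substrates, 6 of 7 could be tested, since IKBKG had 0 counts. MDM2 rose, as above, and FANCI, which binds PIDD1 in DNA crosslink repair, fell from 101 ± 6.17 CPM to 90.1 ± 12.0, 86.1 ± 9.71 and 74.5 ± 10.7 (log2 fold change -0.28, SE 0.0884, edgeR adjusted p = 0.0473). The FANCI call is at the threshold and was lost in 15 of 25 alternative fits, 12 of them by leaving out 1 library, each of the 4 controls among them (adjusted p 0.0642 to 0.157 without a control). The median of the 6 was -0.04, and the 2 calls stand beside 7.14% of all genes. Among the other caspases 3 of 8 had enough reads, and none was called over the 3 siRNAs by edgeR, DESeq2 or limma-voom (1 at an unadjusted p under 0.05, median -0.12).

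The p53 node had 3 of 8 tested genes called higher over the 3 siRNAs, beside 3.61% of all genes, and none lower. They were CDKN1A, which encodes the cell cycle inhibitor p21 (66.7 ± 26.1 CPM with siNTC, then 274 ± 27.6, 417 ± 65.1 and 547 ± 102; log2 fold change 2.58, SE 0.235, edgeR adjusted p = 2.1e-05), PPM1D, a phosphatase that turns p53 signalling off (log2 fold change 0.996, SE 0.117, adjusted p = 4.3e-07), and MDM2. All 3 are textbook p53 targets. PLK1, a mitotic kinase on which the stopwatch complex depends, had a log2 fold change of -0.16 and did not pass (edgeR adjusted p = 0.349).

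Beyond the stopwatch, 53BP1 steers the repair of broken DNA through effectors, and these gave 1 higher and 1 lower call among 9 tested (median -0.15), beside 3.61% of all genes called higher and 3.53% lower. RIF1, which 53BP1 recruits to breaks, fell from 384 ± 20.2 CPM to 312 ± 35.0, 305 ± 18.4 and 283 ± 12.4 (log2 fold change -0.36, SE 0.0669, edgeR adjusted p = 5.4e-04), with 12 of 12 libraries below the controls. For this downward separation, too, the share of all tested genes is not reported here. DYNLL1, a dynein light chain that binds 53BP1, rose with a log2 fold change of 0.32 (SE 0.0930, adjusted p = 0.0336). The DYNLL1 call was lost without siNTC replicate 1 (0.133), siNTC replicate 3 (0.140) or si46 replicate 1, 2 or 4 (0.0508 to 0.0532).

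The Hippo list holds kinases, scaffolds and transcription factors around LATS1 and LATS2. Of 20 listed genes 19 were tested, and 1 was called over the 3 siRNAs, beside 7.14% of all genes, with a median log2 fold change of -0.02. That gene, VGLL4, which competes with YAP for TEAD factors, rose from 55.8 ± 4.85 CPM to 71.9 ± 4.66, 70.7 ± 4.89 and 77.9 ± 10.7 (0.39, SE 0.0900, edgeR adjusted p = 0.00435), with 12 of 12 libraries above the controls, as for 1.49% of tested genes. WWC1, an upstream activator of LATS kinases named after its value was seen, was called lower under si47 (-0.57, edgeR adjusted p = 0.0183). The 19 tested genes gave 1 lower and 1 higher call under si47, where 4.83% of all genes were called lower and 4.91% higher. The value of WWC1 in the alternative fits is not reported here. YAP1 itself had only 4 to 23 counts per library (log2 fold change -0.47, adjusted p = 0.609), and 2 of 6 YAP targets could be tested, neither called by edgeR, DESeq2 or limma-voom (0 at an unadjusted p under 0.05).

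**Figure D4:**
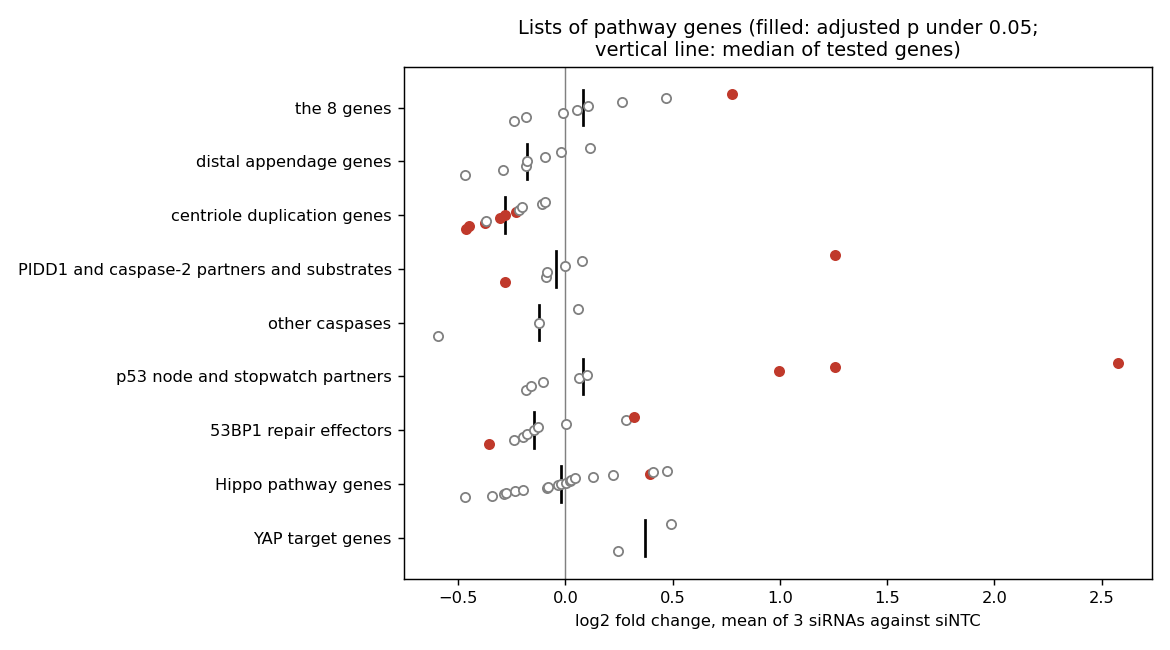
Log2 fold change over the 3 siRNAs against siNTC (x axis) of each tested gene in the 8 genes and in 8 lists of pathway genes (y axis); filled points have an edgeR adjusted p under 0.05 and the vertical line is the list median. All 11 centriole duplication genes lie below 0, and CDKN1A (2.58), MDM2 (1.25) and PPM1D (0.996) lie far to the right.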

How the data were processed

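The values are whole-number counts per Ensembl gene, deposited by the authors as 1 table for all 16 libraries. Per the labels' protocols, total RNA went through a QuantSeq 3' end kit with 15 PCR cycles and single-end sequencing. Per the submitters' processing notes, FastQC 0.11.7, STAR 2.7.2b, edgeR 3.36.0, limma 3.50.3 and GRCh38 were used. The counter, the annotation and strand use are not given in the sources used here, nor is any collapsing of PCR copies, so errors from counts cover counting only. Samples were grouped by title and columns matched by siRNA and replicate number. Symbols matched 58434 of 58787 identifiers.

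Here, edgeR 4.0.16 (R 4.3.3) was run on the counts with filterByExpr (minimum count 10, minimum total 15), TMM scaling and 1 robust quasi-likelihood model of 4 group means over all 16 libraries, with Benjamini-Hochberg adjustment over 14193 genes per contrast and a threshold of 0.05. An SE is the log2 fold change over the square root of F. The code was tested on simulated data. DESeq2 1.42.0 and limma-voom (limma 3.58.1), other scalings and filters, a replicate block and leaving out each library were alternatives. Within-library differences use a pseudocount of 1 CPM. Likeness used log2 CPM with prior count 2 and a mean count of at least 20.

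The members, the lists and the naming rule were chosen with earlier results of these data known. The rule named the 8 genes, TPX2, MDM2, PLK1, TRIM37, YAP1, up to 3 called genes per list by lowest p over the 3 siRNAs, and the 3 genes most like a member called there. Some genes it covers are not reported here. The PIDD1 minus ANKRD26, PIDD1 minus MDM2 and USP28 minus TP53BP1 differences were added later. No pair of libraries within a group agreed within sampling noise (24 pairs, chi-square 4.39 to 10.2 per degree of freedom). Same-numbered libraries of si45 and si47 deviated together (r 0.120 to 0.242 over genes, above 0.1 in each of 4 pairs). In the other pairs of groups at least 1 number fell below 0.1, though r was positive in each (0.0188 to 0.184 against siNTC). The numbers were not taken to pair libraries against siNTC, but the sources used here do not settle whether they do. With the number as a block, calls rose from 190 to 577 genes under si45 and from 482 to 1073 under si46. Under si47 they rose from 1382 to 2198. The fit with the number as a block is given among the alternatives.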

Additional observations from a re-analysis of the deposited data

Results flagged for a closer look

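In 4 of 60 groups of 4 libraries looked at, 1 library stood apart from the other 3 by the Dixon criterion, which sets its gap to the nearest library against the group's range, and chance gives about 3. CRADD in si46 replicate 4 was at 6.33 CPM, with the other si46 libraries at 2.18 to 2.28 CPM. LATS2 in si45 replicate 4 was at 4.92 CPM, with the others at 3.364 to 3.468 CPM. LATS2 minus LATS1 in siNTC replicate 1 was -3.57 on the log2(CPM + 1) scale, with the other controls at -2.02 to -1.83. TPX2 in si45 replicate 3 was at 121 CPM, with the others at 79.4 to 85.1 CPM.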

How the results depend on the processing

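No result with a call changed direction under any of 25 alternative fits. Of the 56 pairs of a member and a comparison, 53 were not called, and 26 of those changed sign under some alternative. The count of members called under si47 was 1 in place of 2 with upper-quartile factors, with limma-voom, with all genes kept, with 10 counts asked of every library, or with the small nuclear RNA level as a covariate (chosen after seeing the data), USP28 being the one lost. With only the siNTC and si47 libraries fitted it stayed 2, as USP28 was lost (edgeR adjusted p = 0.0839) and CASP2 gained a call (0.0499). The count was 0 to 3 with 1 library left out. Over the 3 siRNAs it was 0 to 1 with 1 library left out. With the replicate number as a block, 1 member was called under si46 in place of 0 (PIDD1, adjusted p = 0.0294) and 3 Hippo genes in place of 1, and all genes called over the 3 siRNAs numbered 1817 in place of 1014; CASP2 under si47 gained a call (0.0113) and no other member call changed. PIDD1 partners called numbered 1 in place of 2 with upper-quartile factors, DESeq2 or 10 counts asked of every library, and 1 to 2 with 1 library left out. With 1 library left out, 2 to 6 centriole duplication genes and 1 to 2 of the 53BP1 effectors were called. The cause was not tested. CRADD, LATS2 and YAP1 could not be tested at 10 counts in every library. CRADD and LATS2 had 6 to 46 counts per library, and their spread between libraries was wider than counting alone gives, except for LATS2 with si45.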
